A study of Mus musculus with 36 samples.

Results

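The 10 genes described here encode histone chaperones that assemble chromatin. Among them are Chaf1a and Chaf1b of the CAF-1 complex, and Rbbp7, the paralogue of Rbbp4 of that complex. The others are the ASF1 pair Asf1a and Asf1b, Hira and Ubn1 of the HIRA complex, Daxx, the egg nucleoplasmin Npm2, and the nucleosome assembly protein Nap1l1. The 10 genes were chosen by name from the families of CAF-1, HIRA, ASF1 and nucleoplasmin-type chaperones, together with Daxx and Nap1l1. No rule on their values was used, but earlier results of these data were known when they were chosen. All 10 were found among the 23845 gene symbols of the expected-count table. The 36 RNA-seq libraries each came from a pool of 4 to 5 mouse embryos, at the 8-cell stage (8C, 19 libraries) and the 2-cell stage (2C, 17 libraries). At 8C there were 7 VP64, 6 Ctrl and 6 NI libraries, and at 2C 6 KRAB, 7 Ctrl and 4 NI libraries. VP64 is the name of a synthetic transcriptional activator domain and KRAB that of a repressor domain. The labels describe embryos as injected without saying what the Ctrl embryos received or what NI stands for, and they give no strain or litter. The title of the series concerns the retrotransposon LINE-1 and the openness of chromatin after fertilisation. No label says that pools came from separate matings or days, so p-values here refer to the variation among these pools and may reflect technical variation.

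Histone chaperones bind free histones, keep them soluble and hand them to DNA. CAF-1, which receives histones H3 and H4 from ASF1, places replicative H3 behind the replication fork, whereas the HIRA complex and DAXX place the variant H3.3 independently of DNA synthesis. In the fertilised egg the maternal stores of these proteins exchange the protamines of the sperm for histones, with nucleoplasmin among the factors that open sperm chromatin, and the embryo's own genes take over as cleavage proceeds.

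The deposited totals were between 1103570 and 13583500 counts per library at 8C and between 1043740 and 10035100 at 2C, with 9672 to 15023 genes detected at 8C and 12174 to 16194 at 2C. Levels are given as CPM, counts scaled to a common library size after TMM normalization over all 36 libraries, so they are relative to the library and not amounts per embryo. In bulk RNA, fewer cells of a type and less RNA per cell cannot be told apart. Replicate 6 of Ctrl 8C stood apart with the lowest scaling factor (0.503) and the fewest genes (9672), and replicate 7 of VP64 8C had the next lowest factor (0.624) and 11343 genes. Results that rest on either are given with and without it. The 8 markers of the 2-cell embryo, among them Zscan4c and Zfp352, summed to 9.03 to 89.1 CPM over the 8C libraries, against 246 to 2178 CPM over the 2C libraries, so the 2 ranges did not overlap. The 7 markers of the 8-cell embryo were in every group. Their summed medians were 1615, 1643 and 1245 CPM in VP64, Ctrl and NI at 8C. At 2C they were 730.5, 212 and 1356 CPM in KRAB, Ctrl and NI. Singly, Aqp3, Cdx2, Gata6, Krt8, Krt18 and Tdgf1 were higher at 8C within both Ctrl and NI. Their log2 fold changes ran from 2.68 to 4.83 within Ctrl and from 2.97 to 7.60 within NI. The largest adjusted p was 0.000300 (Krt8 in NI, edgeR). Nanog was not called, with 1.03 within Ctrl and -1.15 within NI (adjusted p = 0.217 and 0.245, edgeR). The sums thus do not show how single markers differed between stages. The 10 markers of cumulus cells, which surround the egg, summed to 0.6005 to 342 CPM in VP64 8C, 0 to 10.3 in Ctrl 8C and 0.402 to 1.53 in NI 8C, against 4.35 to 355 CPM in KRAB 2C, 2.88 to 131 in Ctrl 2C and 14.4 to 77.2 in NI 2C. Amh was at 0 in Ctrl 8C, NI 8C and the 3 groups at 2C, and Has2 and Ptx3 in all 3 groups at 8C. The 7 sperm markers reached at most 1.99 CPM in an 8C library, against 20.9 CPM in a 2C library. The part of these cells in the results between stages was not tested.

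Compared per length of the longest coding transcript, Rbbp7 was the most abundant member in 5 of the 6 groups and Npm2 in NI 2C. The mean level of Rbbp7 was 362 ± 83.1 CPM per kb in VP64 8C, 451 ± 197 in Ctrl 8C and 374 ± 307 in NI 8C, against 267 ± 136 in KRAB 2C, 862 ± 689 in Ctrl 2C and 168 ± 97.9 in NI 2C (SD; n = 7, 6, 6, 6, 7 and 4). Nap1l1 was the next member in all 3 groups at 8C, with 110 ± 22.9 CPM per kb in VP64, 141 ± 13.9 in Ctrl and 143 ± 24.6 in NI. Hira, Daxx, Ubn1 and Chaf1a took the lowest 4 places in VP64 8C, Ctrl 8C and NI 8C, each at 6.86 CPM per kb or less. Of the 54 pairs of members next to each other in these orders, the ranges over libraries overlapped in 47, so neighbours in most of the order did not differ beyond the spread between libraries. The 7 pairs that did not overlap included Rbbp7 above Nap1l1 and Asf1a above Asf1b in VP64 8C.

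**Figure D1:**
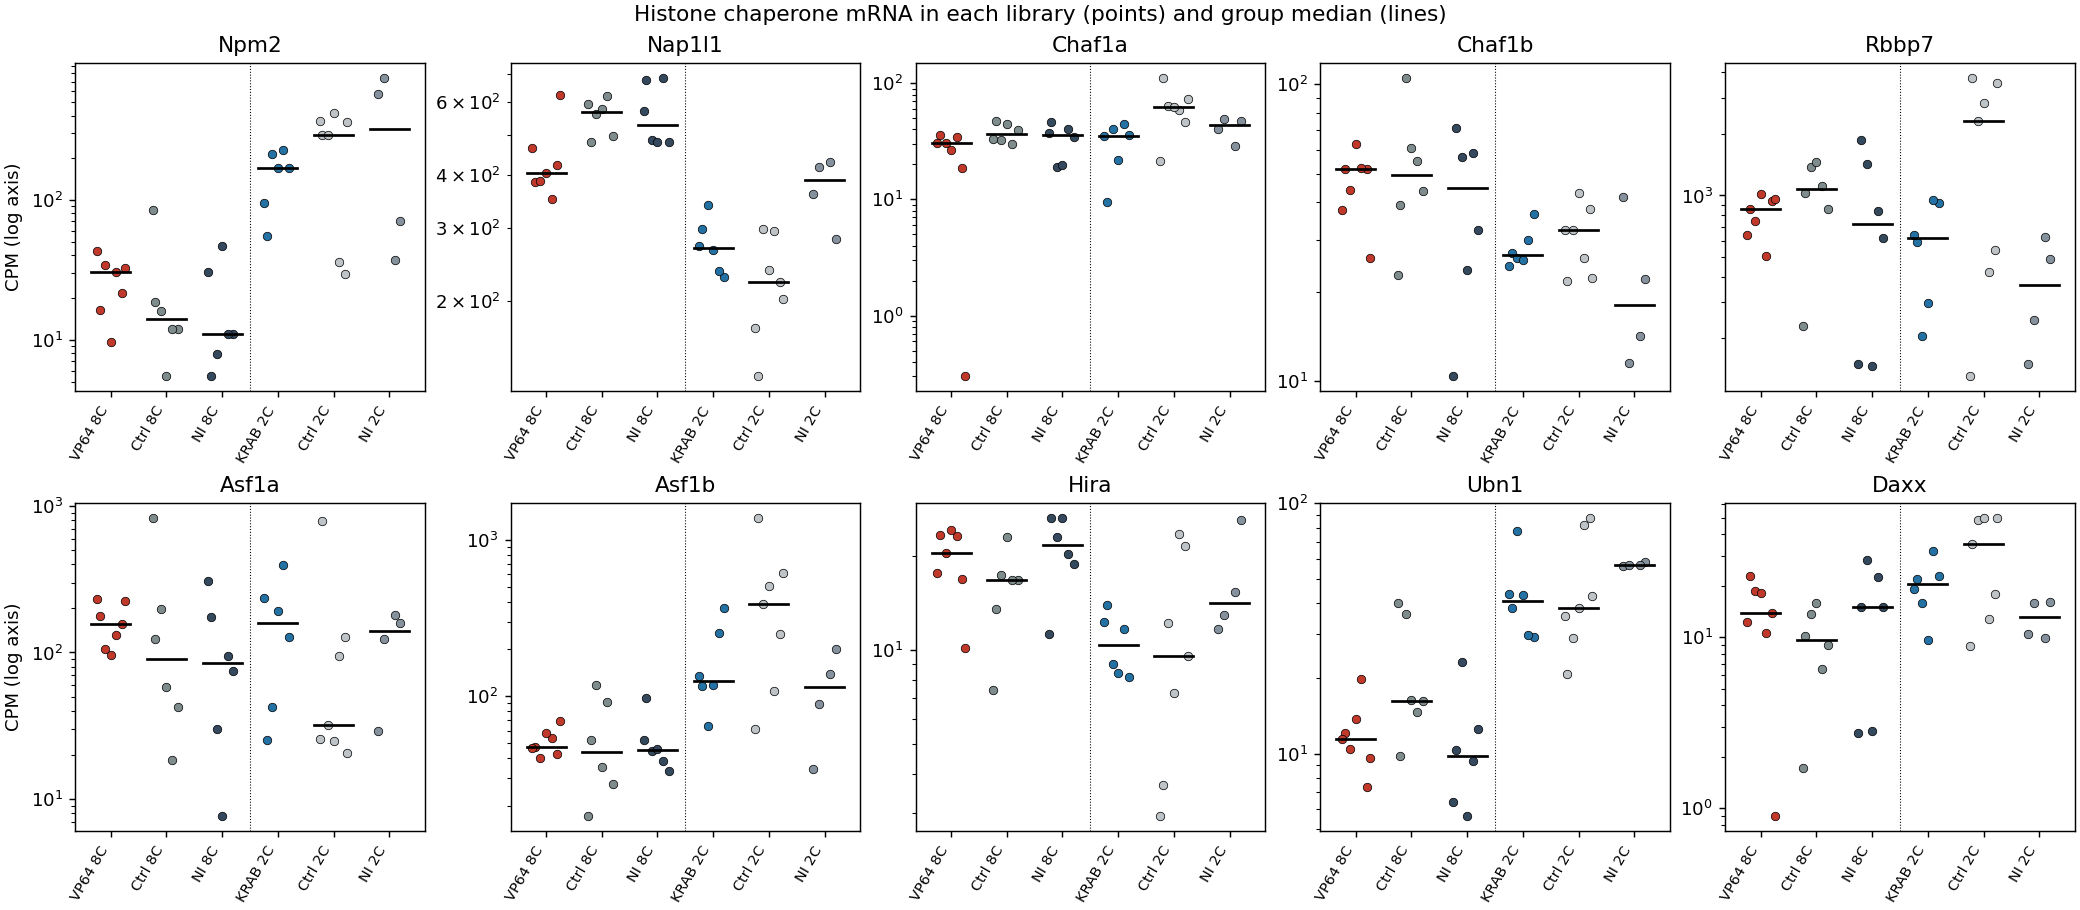
CPM of the 10 histone chaperone genes (log axis) in each library (points) of the 6 groups, 8C groups on the left and 2C groups on the right of the dotted line, with the group median as a line. Nap1l1 sat higher and Ubn1 and Npm2 sat lower in most 8C than 2C libraries, and 4 Ctrl 2C libraries held 2310 CPM of Rbbp7 or more.

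Stages were compared within Ctrl and within NI, the 2 treatments present at 8C and 2C, which addresses how these genes change as the embryo cleaves. In Ctrl, 1 of the 10 members rose at 8C, Nap1l1, and 4 fell, Npm2, Asf1b, Daxx and Ubn1. In NI none rose and 2 fell, Npm2 and Ubn1. The counts stand against a background of 22.5% of all 13158 genes tested that rose and 39.0% that fell in Ctrl, and 18.5% that rose and 31.4% that fell in NI, by the quasi-likelihood test of edgeR at an adjusted p under 0.05. The median log2 fold change of the 10 members was -0.83 in Ctrl and 0.03 in NI, beside -0.51 and -0.47 over all genes tested. The size factors of DESeq2 moved the median of all genes to -0.70 in Ctrl and -0.72 in NI, so changes relative to the median under TMM are given beside the folds that follow. Both comparisons have their own libraries and share none.

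Npm2 lies on chromosome 14 (70647302 to 70659244, minus strand, GRCm38) and encodes the nucleoplasmin of the egg. It had 5.46, 14.0 and 84.0 CPM (lowest, median, highest) in Ctrl 8C, against 29.4, 293 and 415 CPM in Ctrl 2C. It had 5.53, 11.0 and 46.7 CPM in NI 8C, against 574, 70.8, 742 and 37.3 CPM in the 4 NI 2C pools. The single 8C libraries that reached the lowest 2C values were replicate 6 of Ctrl and replicate 5 of NI, and the NI 2C pools divided into a pair at 574 CPM or more and a pair at 70.8 CPM or less. Npm2 fell by 3.39 ± 0.71 on the log2 scale in Ctrl (SE, adjusted p = 9.56e-05, edgeR) and by 4.25 ± 0.78 in NI (adjusted p = 2.74e-05, edgeR), which are -2.88 and -3.78 relative to the median of all genes. It was called with each library left out, and its log2 fold change was -4.32 in Ctrl without replicate 6 of Ctrl 8C and -3.60 in NI without replicate 3 of NI 2C. Of its exonic bases, 3.76% are shared with Xpo7 on the same strand.

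Nap1l1 (chromosome 10, 111473223 to 111498150) encodes a chaperone of histones H2A and H2B. It had 481, 568 and 619 CPM (lowest, median, highest) in Ctrl 8C, against 132, 223 and 298 CPM in Ctrl 2C. It had 480.0, 527 and 683 CPM in NI 8C, against 361, 281, 419 and 430 CPM in NI 2C. All 8C libraries lay above all 2C libraries of the same treatment, the only member for which this held in both. The share of all genes that separate in this way was not counted, so the separation is not shown to be unusual. Nap1l1 rose in Ctrl by 1.31 ± 0.30 (SE, log2, adjusted p = 0.000229, edgeR), 1.82 relative to the median of all genes. In NI the log2 fold change was 0.59 ± 0.35, with a 95% interval of -0.11 to 1.29 (adjusted p = 0.150, edgeR), and limma-voom called it there (0.77, adjusted p = 0.0157). Near-identical copies share 24.6% of its 31-base words, mostly the gene model Gm4204. That model is not in the expected-count table. How its reads were assigned is therefore not known, and some could have been counted as Nap1l1.

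Of the CAF-1 genes, Chaf1a (chromosome 17, 56040439 to 56072289) encodes the large subunit and Chaf1b (chromosome 16, 93883901 to 93906115) the middle subunit. Rbbp7 (chromosome X, 162760402 to 162779092), grouped with them here, encodes a histone-binding WD40 protein of deacetylase and Polycomb complexes. None of the 3 passed in edgeR in either treatment, whereas DESeq2 called Chaf1a in Ctrl (-0.96, adjusted p = 0.0481), and limma-voom with quality weights called Rbbp7 in Ctrl (-1.16, adjusted p = 0.0352) and Chaf1b in NI (1.07, adjusted p = 0.0169). Chaf1a had 30.2, 36.3 and 47.4 CPM in Ctrl 8C, against 21.6, 62.8 and 111 CPM in Ctrl 2C, and its log2 fold change was -0.73 ± 0.46 in Ctrl and -0.33 ± 0.53 in NI. Chaf1b had 22.9, 49.4 and 105 CPM in Ctrl 8C, against 21.7, 32.3 and 43.0 CPM in Ctrl 2C. Its log2 fold change was 0.82 ± 0.38 in Ctrl (adjusted p = 0.0589, edgeR) and 0.93 ± 0.46 in NI (adjusted p = 0.0903, edgeR), so the signs of Chaf1a and Chaf1b were opposite in both treatments, also with the size factors of DESeq2. Chaf1b passed in Ctrl without replicate 4, 5 or 6 of Ctrl 8C (adjusted p = 0.0440, 0.0496 and 0.0262, edgeR) and in NI without replicate 1 of NI 2C or replicate 6 of NI 8C (adjusted p = 0.0224 and 0.0217, edgeR). Without replicate 1 of NI 2C, Asf1b passed as well, and the members called in NI numbered 4. Of the exonic bases of Chaf1a, 52.5% are shared with Ubxn6 on the opposite strand, and SMART-seq v4 does not mark strand, so reads of the 2 genes cannot be told apart there.

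Rbbp7 was widely spread in Ctrl 2C and NI 8C. It had 231, 1072 and 1458 CPM in Ctrl 8C, against 3750, 543, 2310, 421, 2846, 131 and 3545 CPM in replicates 1 to 7 of Ctrl 2C. In NI it had 147, 729 and 1861 CPM at 8C, against 150, 488, 245 and 629 CPM at 2C. The Ctrl 2C pools comprised 4 at 2310 CPM or more and 3 at 543 CPM or less. The same 4 pools, replicates 1, 3, 5 and 7, held the 4 highest levels of Asf1b, of Daxx and of Chaf1a in that group. The log2 fold change of Rbbp7 between stages was -0.93 ± 0.60 in Ctrl and 1.15 ± 0.71 in NI. Its exonic bases overlap Txlng on the opposite strand over 5.98%. The gene model Gm6382, which is not in the expected-count table, shares 11.6% of its 31-base words.

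Asf1a (chromosome 10, 53596757 to 53609225) and Asf1b (chromosome 8, 83955507 to 83970197) encode the paralogues that hand H3 and H4 to CAF-1 and HIRA. ASF1B is known as the form of proliferating cells, while ASF1A is the form tied to HIRA. Asf1b had 52.1, 27.5, 119, 91.9, 35.2 and 17.1 CPM in the 6 Ctrl 8C libraries, against 1385, 250, 389, 107, 503, 61.8 and 610 CPM in the 7 Ctrl 2C libraries. It had 33.1, 45.4 and 96.8 CPM (lowest, median, highest) in NI 8C, against 34.5, 200, 89.2 and 138 CPM in NI 2C. In Ctrl 5 of the 7 2C libraries lay above every 8C library. Asf1b fell by 3.04 ± 0.57 in Ctrl (SE, log2, adjusted p = 1.84e-05, edgeR), -2.53 relative to the median of all genes, and in all 13 fits that left out a library. In NI its log2 fold change was -1.15 ± 0.59, with an interval of -2.34 to 0.04 (adjusted p = 0.0994, edgeR), and it passed without replicate 1 of NI 8C or of NI 2C (adjusted p = 0.0376 and 0.0489, edgeR) and in limma-voom (-1.55, adjusted p = 0.00672). Asf1a was spread most widely of the 10 in Ctrl 8C, with 18.5, 90.8 and 834 CPM, against 20.7, 31.8 and 789 CPM in Ctrl 2C. A single library held the highest value at each stage, replicate 6 of Ctrl 8C and replicate 1 of Ctrl 2C. Its log2 fold change in Ctrl, 0.42 ± 0.78, became -0.85 without replicate 6 of Ctrl 8C and 1.85 without replicate 1 of Ctrl 2C (adjusted p = 0.0290, edgeR). Of the exonic bases of Asf1a, 48.0% are shared with Mcm9 on the opposite strand.

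As a share of the ASF1 pair per length, Asf1b averaged 29.3% ± 7.44 in VP64 8C, 42.0% ± 26.7 in Ctrl 8C and 46.5% ± 25.5 in NI 8C (SD, n = 7, 6 and 6). It averaged 59.4% ± 19.3 in KRAB 2C, 79.9% ± 15.7 in Ctrl 2C and 54.1% ± 7.17 in NI 2C (SD, n = 6, 7 and 4). The 7 Ctrl 2C libraries were at 58.3% or more, whereas the 7 VP64 8C libraries were at 42.4% or less, but these groups differ in stage and treatment. The share ran from 2.47% to 86.0% in Ctrl 8C and 17.4% to 88.2% in NI 8C. At 2C it ran from 41.3% to 85.0% in KRAB and 47.2% to 61.0% in NI. Ctrl 8C thus overlapped Ctrl 2C, and NI 8C overlapped NI 2C. Chaf1a made up 14.8% ± 7.44, 22.2% ± 8.73 and 25.5% ± 15.6 of the pair of large CAF-1 subunits in VP64, Ctrl and NI at 8C, against 26.9% ± 9.26, 40.6% ± 15.1 and 42.2% ± 14.3 in KRAB, Ctrl and NI at 2C. These shares were not tested.

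**Figure D2:**
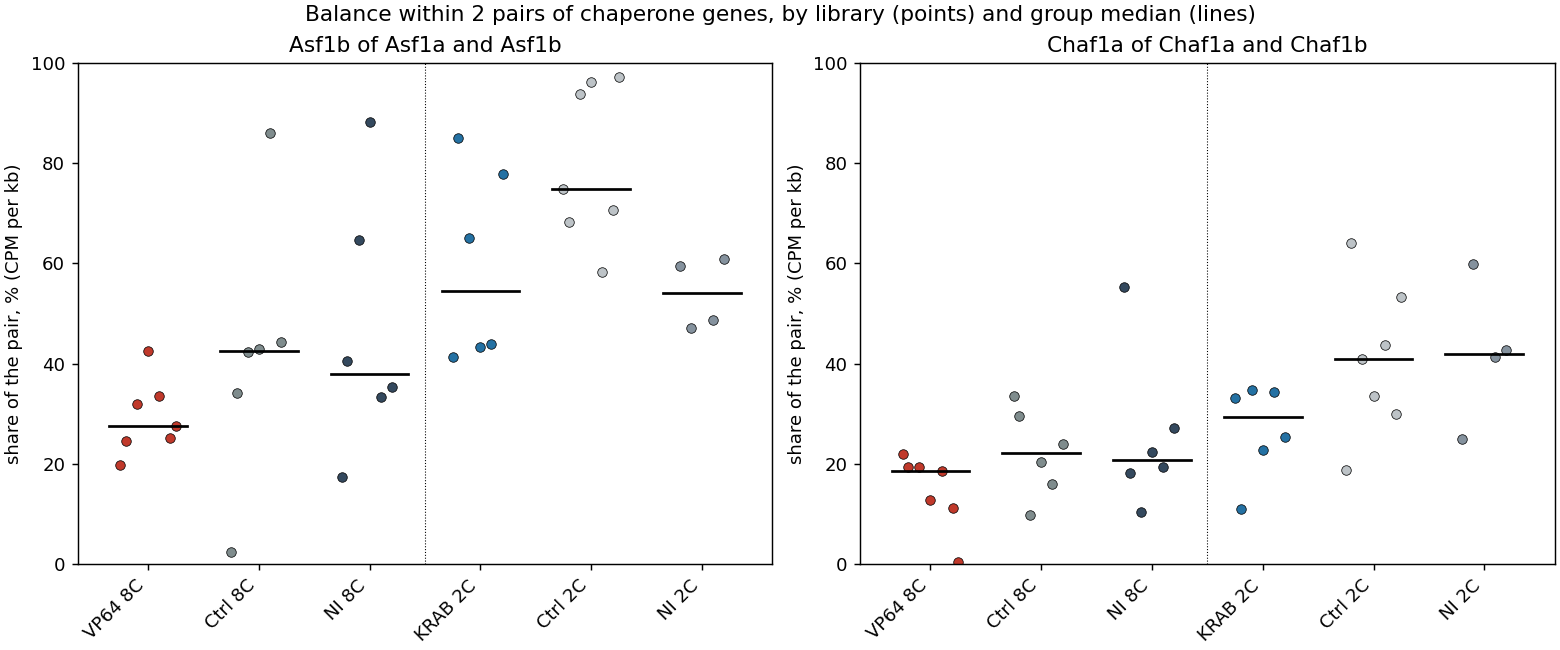
Share of Asf1b in Asf1a and Asf1b (left) and of Chaf1a in Chaf1a and Chaf1b (right), from CPM per kb, in each library (points), with the group median as a line. The Asf1b share ran from 19.8% to 42.4% in VP64 8C, against 58.3% to 97.3% in Ctrl 2C. Within Ctrl the stages overlapped, with 2.47% to 86.0% in Ctrl 8C.

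Hira (chromosome 16, 18877037 to 18970309) encodes the WD40 scaffold of the HIRA complex, and Ubn1 (chromosome 16, 5050057 to 5086289) the subunit that recognises H3.3. Hira was low, with 7.43, 16.8 and 23.0 CPM in Ctrl 8C, against 2.94, 9.59 and 23.5 CPM in Ctrl 2C. Its log2 fold change was 0.44 ± 0.40 in Ctrl (interval -0.37 to 1.26) and 0.34 ± 0.47 in NI (interval -0.61 to 1.30). It did not pass in edgeR, and limma-voom called it in Ctrl (0.93, adjusted p = 0.0108). The overlapping gene model Gm28539, which is not in the expected-count table, shares 43.1% of its 31-base words. Ubn1 had 9.81, 16.3 and 40.0 CPM in Ctrl 8C, against 20.8, 38.0 and 87.7 CPM in Ctrl 2C. It had 10.3, 12.6, 23.2, 9.34, 5.63 and 6.41 CPM in NI 8C, against 56.0, 58.1, 56.8 and 56.6 CPM in NI 2C. The NI groups did not overlap, a separation whose share over all genes was not counted. The SD of the 4 NI 2C pools was 0.862 CPM, from 91, 242, 79 and 343 counts. Sampling of counts this low would spread the values more, so this SD is no measure of how alike the pools were. Ubn1 fell by 2.33 ± 0.46 in NI (SE, log2, adjusted p = 7.29e-05, edgeR) and by 1.11 ± 0.40 in Ctrl (adjusted p = 0.0162, edgeR), -1.86 and -0.60 relative to the median of all genes. In Ctrl it did not pass without replicate 4 or 5 of Ctrl 8C (adjusted p = 0.0640 and 0.0597, edgeR) or with only the 13 Ctrl libraries in the fit (0.0529).

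Daxx (chromosome 17, 33909414 to 33915590) encodes the H3.3 chaperone that works with ATRX at repeats and telomeres. It had 1.71, 9.56 and 15.8 CPM in Ctrl 8C, against 35.1, 17.8, 48.2, 12.8, 49.8, 8.83 and 50.0 CPM in Ctrl 2C. It had 2.75, 15.01 and 28.4 CPM in NI 8C, against 10.5, 16.1, 15.8 and 9.90 CPM in NI 2C. The 4 highest Ctrl 2C libraries were those with the most Rbbp7, while NI 2C lay within the range of NI 8C. Daxx fell by 1.74 ± 0.56 in Ctrl (SE, log2, adjusted p = 0.00674, edgeR), -1.23 relative to the median of all genes. In NI its log2 fold change was 0.16 ± 0.63 (adjusted p = 0.852, edgeR), and -0.16 with the size factors of DESeq2.

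**Figure D3:**
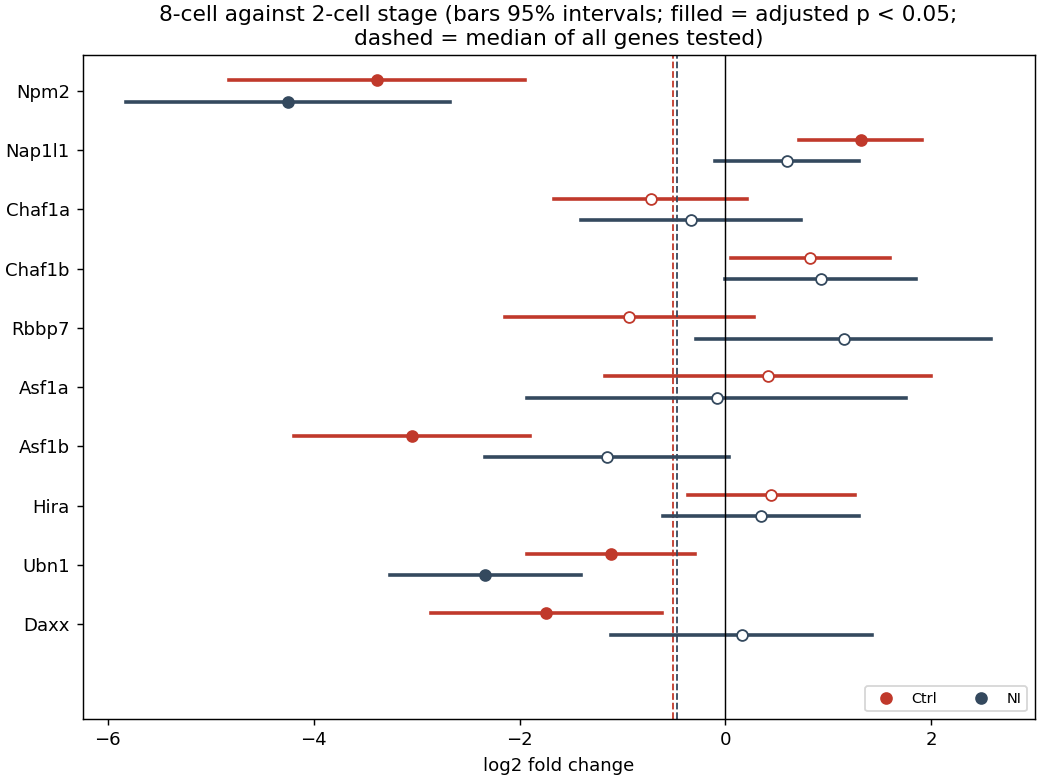
Log2 fold change of each histone chaperone gene at 8C against 2C, in Ctrl (red) and NI (dark), with 95% intervals; filled points have an adjusted p under 0.05 and dashed lines mark the median of all genes tested. Npm2 and Ubn1 lie left of both medians in both treatments, and Nap1l1 and Chaf1b lie right of them.

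Whether the change between stages differed between Ctrl and NI was tested as an interaction, the change in Ctrl minus that in NI. No member passed, and 0% of the 13158 genes did in edgeR, where 2680 genes had an unadjusted p under 0.05, 4 of them members. DESeq2 called 693 genes and 0 members, and limma-voom with quality weights 3600 genes and 3 members. The interaction was -1.89 ± 0.81 for Asf1b, -1.89 ± 0.84 for Daxx, -2.08 ± 0.93 for Rbbp7 and 1.22 ± 0.60 for Ubn1, with adjusted p of 0.176, 0.193, 0.194 and 0.243 (edgeR). The calls that Ctrl has and NI lacks, for Asf1b, Daxx and Nap1l1, are therefore not shown to differ between the treatments. In limma-voom the members called were Asf1b, Daxx and Rbbp7, with adjusted p of 0.0387, 0.0231 and 0.0494. Of the other chaperone genes and the histone variants listed further on, Vps72 (-3.56, adjusted p = 0.0849, edgeR) and H2afv (1.84) had the smallest p, and none passed.

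The promoters of 4 members are shown: Asf1b and Ubn1, which fell at 8C in Ctrl, Nap1l1, which rose there, and Asf1a, the paralogue of Asf1b, which had no call. Npm2 is named only. Each window runs from 250 bases before to 50 bases after the start of the gene in RefSeq on GRCm38.p6, read 5′ to 3′ on the plus strand. The windows are chr8:83955444-83955743 (Asf1b), chr10:53596711-53597010 (Asf1a), chr16:5049807-5050106 (Ubn1) and chr10:111472977-111473276 (Nap1l1). For Asf1b and Asf1a the GENCODE starts given above (83955507 and 53596757) lie upstream of the RefSeq starts, near the beginning of each window. By GENCODE most of these 2 windows is thus within the gene, and positions below refer to the RefSeq start. Capitals mark CCAAT (the box bound by NF-Y), TTCCCGCC (an E2F site) and TTTGAA (the CHR element of late cell cycle genes), each searched on both strands, so their reverse complements are in capitals too.
Asf1b: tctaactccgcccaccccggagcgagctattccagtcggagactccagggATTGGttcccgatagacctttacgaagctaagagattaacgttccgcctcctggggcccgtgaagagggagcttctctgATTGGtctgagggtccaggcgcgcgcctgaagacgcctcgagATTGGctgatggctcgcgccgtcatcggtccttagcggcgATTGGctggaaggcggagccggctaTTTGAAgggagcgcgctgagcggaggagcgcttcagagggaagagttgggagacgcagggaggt
Asf1a: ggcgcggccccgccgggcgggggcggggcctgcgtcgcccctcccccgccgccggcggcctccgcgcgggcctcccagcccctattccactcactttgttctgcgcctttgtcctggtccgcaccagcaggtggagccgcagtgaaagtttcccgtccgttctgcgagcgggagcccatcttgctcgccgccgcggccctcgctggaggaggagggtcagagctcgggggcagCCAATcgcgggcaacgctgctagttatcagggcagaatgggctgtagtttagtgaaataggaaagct
Ubn1: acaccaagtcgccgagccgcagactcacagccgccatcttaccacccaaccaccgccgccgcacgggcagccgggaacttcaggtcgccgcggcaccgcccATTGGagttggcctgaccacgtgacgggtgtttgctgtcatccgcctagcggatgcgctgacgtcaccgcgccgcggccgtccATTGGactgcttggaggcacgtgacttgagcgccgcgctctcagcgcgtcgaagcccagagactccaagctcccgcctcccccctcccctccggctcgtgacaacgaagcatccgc
Nap1l1: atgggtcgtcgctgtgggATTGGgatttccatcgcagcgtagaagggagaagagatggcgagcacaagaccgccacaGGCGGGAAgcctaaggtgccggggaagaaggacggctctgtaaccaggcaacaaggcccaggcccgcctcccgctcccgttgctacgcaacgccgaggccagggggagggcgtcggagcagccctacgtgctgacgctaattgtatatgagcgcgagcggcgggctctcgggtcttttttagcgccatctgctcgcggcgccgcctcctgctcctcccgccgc
Asf1b held 4 CCAAT boxes, at -200, -121, -79 and -39 from the start, and a TTTGAA at -14. At least 4 CCAAT boxes were found in 1.06% of 32851 RefSeq promoters of the same length, at least 1 in 37.4%, and TTTGAA in 17.9%. Its paralogue Asf1a held 1 CCAAT box, at -17, Ubn1 held 2, at -149 and -66, and Nap1l1 held 1, at -232. TTCCCGCC, present in 2.19% of all promoters, was found in Nap1l1 at -173 and, among the other members, in Chaf1a at -47. The GC box GGGCGG, present in 35.7% of all promoters, was searched as well and is not in capitals. There were 2 in Asf1a, 1 in Asf1b, 1 in Ubn1 and 0 in Nap1l1. Among the other members, Chaf1b held 5 and Rbbp7 4, and at least 4 were found in 5.49% of promoters. Windows were held for 9 members, and the motifs were chosen after these sequences had been read. A match describes the letters of the window only.

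Among 33 other histone chaperone genes, 32 were in the table and 30 were tested between the stages. In Ctrl 11 of the 30 rose and 7 fell in edgeR, where 22.5% of all genes rose and 39.0% fell. In NI 9 rose and 4 fell, where 18.5% of all genes rose and 31.4% fell. Without replicate 6 of Ctrl 8C, 9 rose and 5 fell in Ctrl. Their median log2 fold change was 0.12 in Ctrl and 0.69 in NI, beside -0.51 and -0.47 over all genes. Set, an acidic chaperone related to the NAP1 family, had 3228, 5538 and 26052 CPM (lowest, median, highest) in Ctrl 8C, against 59.0, 759 and 910 CPM in Ctrl 2C, and rose by 4.05 ± 0.66 in Ctrl and 2.93 ± 0.79 in NI (SE, log2). The highest value was that of replicate 6 of Ctrl 8C, without which Set rose by 3.30 in Ctrl (adjusted p = 2.00e-05, edgeR). Npm1, the abundant nucleolar relative of Npm2, rose by 2.61 ± 0.42 in Ctrl and 2.24 ± 0.51 in NI, so that the genes of one family moved in opposite directions. Npm3, the third member of that family, rose by 1.20 ± 0.46 in Ctrl and 2.60 ± 0.59 in NI, and in Ctrl it did not pass with the size factors of DESeq2 (0.99, adjusted p = 0.0689, edgeR) or without replicate 1, 2 or 4 of Ctrl 2C or replicate 4 of Ctrl 8C (adjusted p up to 0.0783, edgeR). Set, Npm1 and Npm3 share 31.3%, 29.2% and 30.7% of their 31-base words with other gene models, which makes their single values uncertain. The model sharing the most words was absent from the expected-count table for Set and Npm1, and present for Npm3.

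Hat1, the enzyme that acetylates new H4, rose by 2.73 ± 0.54 in Ctrl and 2.37 ± 0.66 in NI. Ipo4, the importin of H3 and H4, rose by 1.30 ± 0.50 in Ctrl and 1.92 ± 0.63 in NI. However, 53.1% of its words are also in the model Gm49378, which is not in the expected-count table. In Ctrl the call of Ipo4 was lost without replicate 1, 4, 5 or 7 of Ctrl 2C or replicate 5 of Ctrl 8C (0.74 without the last, adjusted p = 0.190, edgeR). Nasp, which guards the soluble H3 and H4 pool, rose in Ctrl (1.30 ± 0.36), and in NI its value was 0.88 ± 0.43. Rbbp4, the CAF-1 histone-binding paralogue of Rbbp7, rose by 1.49 ± 0.39 in Ctrl and 1.80 ± 0.48 in NI. Ncl, the nucleolar protein nucleolin, rose by 2.23 ± 0.46 in Ctrl and 1.45 ± 0.55 in NI. In NI it did not pass with the size factors of DESeq2 (adjusted p = 0.0794, edgeR) or without replicate 2, 3 or 4 of NI 2C (adjusted p = 0.133, 0.0506 and 0.128, edgeR), and its value was 2.20 without replicate 1. Mcm2, the helicase subunit that binds H3 and H4, and Vps72, which loads H2A.Z, rose in NI (1.91 ± 0.63 and 2.55 ± 0.75, with 3.23 for Vps72 without replicate 3 of NI 2C), while in Ctrl their values were -0.64 ± 0.51 and -1.01 ± 0.59. Anp32b and Supt16, the large subunit of the FACT complex, rose in Ctrl (2.14 ± 0.58 and 1.51 ± 0.57), where in NI they had 0.69 ± 0.68 and 1.30 ± 0.69. Supt16 did not pass in Ctrl without replicate 1 or 4 of Ctrl 2C or replicate 4 or 6 of Ctrl 8C (adjusted p up to 0.0714, edgeR), nor in limma-voom.

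Ubn2, the paralogue of Ubn1, had 15.5 ± 8.70 CPM in Ctrl 8C, against 42.3 ± 12.1 CPM in Ctrl 2C, and fell by 1.46 ± 0.37 in Ctrl and 2.04 ± 0.42 in NI (SE, log2). Cabin1, the third subunit of the HIRA complex, had 23.2 ± 10.7 CPM in Ctrl 8C, against 88.2 ± 22.5 CPM in Ctrl 2C, and fell by 1.92 ± 0.38 in Ctrl and 1.20 ± 0.42 in NI. Without replicate 6 of NI 8C, Cabin1 did not pass in NI (-0.96, adjusted p = 0.0603, edgeR). Of the HIRA complex genes, Ubn1, Ubn2 and Cabin1 had calls of a fall in both treatments in edgeR, where 39.0% of all genes fell in Ctrl and 31.4% in NI, and Hira had none. Per length, Ubn1 made up 76.4% ± 5.12 of Ubn1 and Ubn2 in Ctrl 8C, against 69.7% ± 7.34 in Ctrl 2C (SD, n = 6 and 7). In NI the direction was the opposite, with 63.6% ± 13.4 at 8C, against 70.1% ± 6.52 at 2C (SD, n = 6 and 4). VP64 8C had 69.1% ± 6.52 and KRAB 2C 71.0% ± 5.93, and the share was not tested. Hjurp, the CENP-A chaperone, fell in Ctrl (1.08 ± 0.41), though not without replicate 3 or 6 of Ctrl 8C (adjusted p = 0.0510 and 0.0554, edgeR). Tspyl1 and Nap1l3, both of the NAP1 family, fell in Ctrl (2.69 ± 0.59 and 2.82 ± 0.97), with -1.42 ± 0.63 and -1.93 ± 1.03 in NI, and the value of Nap1l3 in Ctrl was -3.55 without replicate 5 of Ctrl 8C. Nap1l3 was near the floor, so the size of its fall is uncertain. It had 14 counts in all in Ctrl 8C, in 3 of 6 libraries (mean 0.542 CPM), against a mean of 4.20 CPM in Ctrl 2C. Dek, an H3.3 chaperone, fell in NI (1.57 ± 0.48), with 0.08 ± 0.42 in Ctrl.

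**Figure D4:**
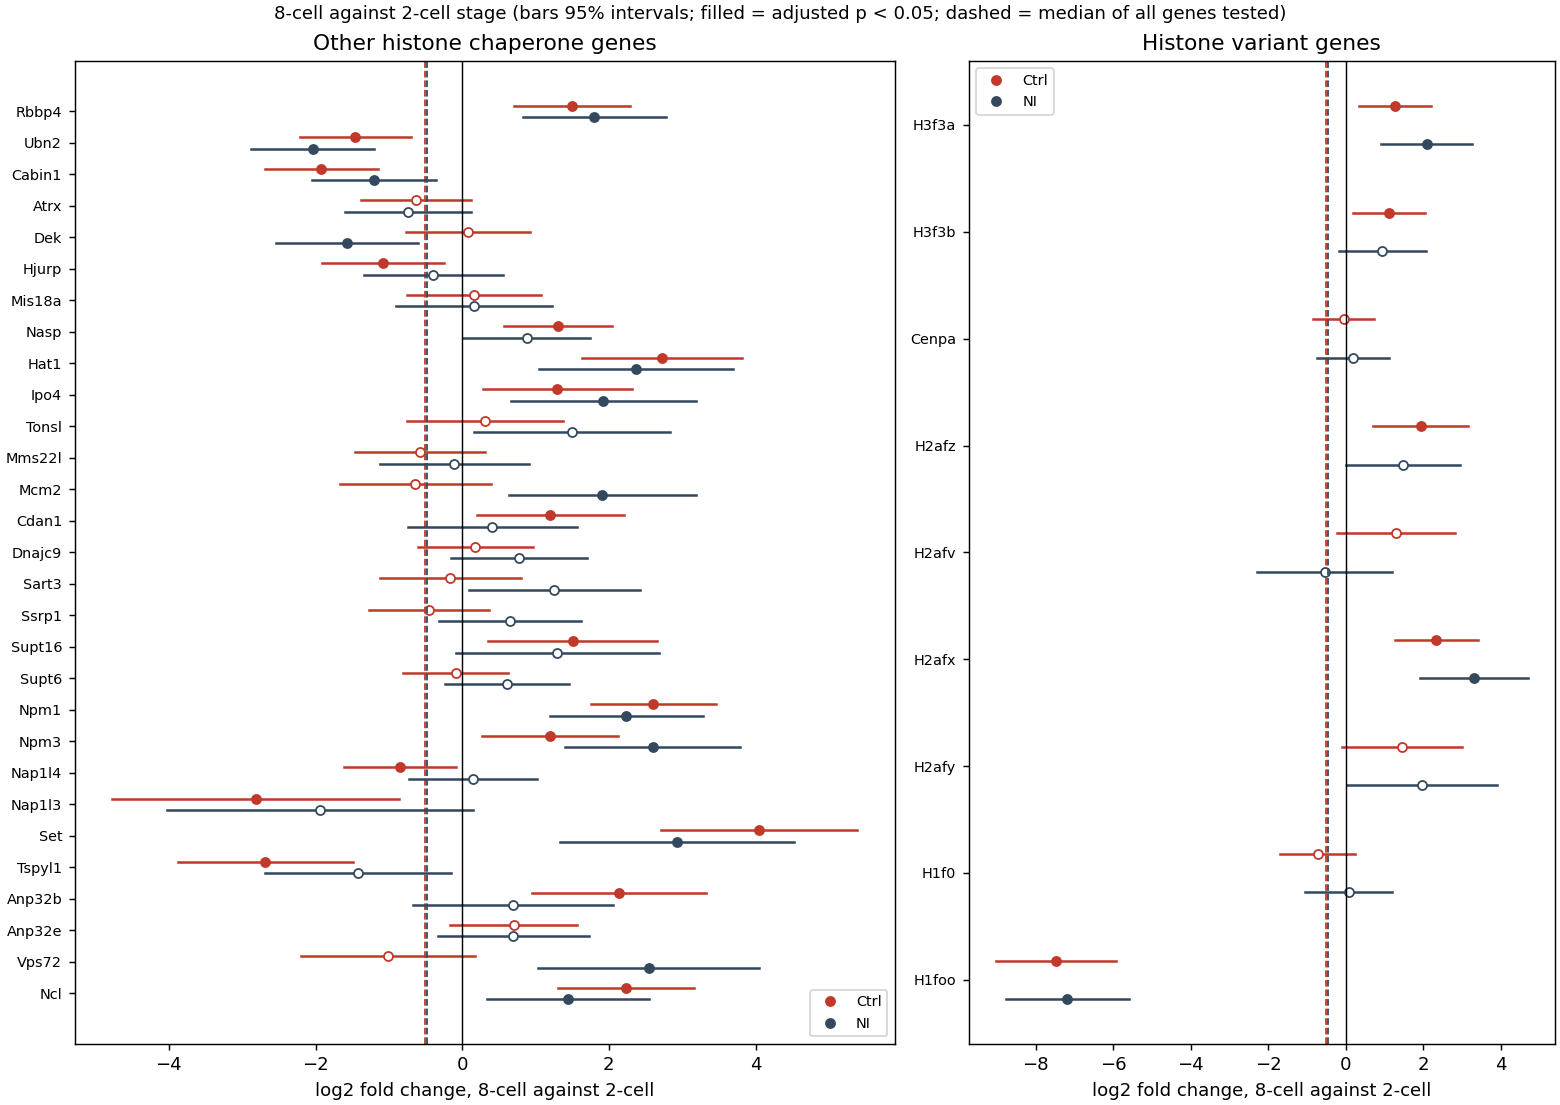
Log2 fold change at 8C against 2C of other histone chaperone genes (left) and of histone variant genes (right), in Ctrl (red) and NI (dark), with 95% intervals; filled points have an adjusted p under 0.05 and dashed lines mark the median of all genes tested. Ubn2 and Cabin1 lie on the lower side, Set, Npm1 and Hat1 on the higher side, and H1foo is the lowest of all.

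Of 9 genes for the histone variants that these proteins carry, 4 rose and 1 fell in Ctrl, and 2 rose and 1 fell in NI (edgeR), against the same shares of all genes, 22.5% and 39.0% in Ctrl and 18.5% and 31.4% in NI. Without replicate 6 of Ctrl 8C, 3 rose and 1 fell in Ctrl. H3f3a, which encodes H3.3, rose by 1.26 ± 0.46 in Ctrl and 2.08 ± 0.58 in NI (SE, log2), and H3f3b, which encodes the same protein, rose in Ctrl (1.11 ± 0.46) and had 0.94 ± 0.55 in NI. In Ctrl H3f3a did not pass without replicate 2 of Ctrl 2C or replicate 1 of Ctrl 8C (adjusted p = 0.0574 and 0.0754, edgeR). H3f3b did not pass there with the size factors of DESeq2 (adjusted p = 0.106, edgeR), in DESeq2, in limma-voom, or without replicate 2, 3, 4, 5 or 7 of Ctrl 2C or replicate 3 or 6 of Ctrl 8C (adjusted p up to 0.170, edgeR). H2afx, the H2A variant of DNA damage signalling, rose by 2.33 ± 0.53 in Ctrl and 3.30 ± 0.69 in NI, and H2afz rose in Ctrl (1.93 ± 0.61, with 1.47 ± 0.73 in NI). H1foo, the linker histone of the oocyte, had 3.56 ± 2.76 CPM in Ctrl 8C, against 658 ± 697 CPM in Ctrl 2C, and fell by 7.48 ± 0.77 in Ctrl and 7.19 ± 0.79 in NI. Its highest Ctrl 2C value was 2092 CPM, and without replicate 6 of Ctrl 2C it fell by 6.84 in Ctrl. H3f3a and H2afz share 17.5% and 18.8% of their words with other genes.

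Between the treatments of one stage no member passed in edgeR, while DESeq2 and limma-voom called members at 2C. At 8C, VP64 was compared with Ctrl, and Ctrl with NI. These comparisons share the Ctrl libraries, and VP64 against NI shares both others, so their values are not independent of each other. As the labels do not say what the Ctrl embryos received, a difference from Ctrl cannot be assigned to the activator domain. Of 9850 genes tested in edgeR, 0% passed in any of the 3. An unadjusted p under 0.05 was found for 393 genes between VP64 and Ctrl, 429 between Ctrl and NI and 706 between VP64 and NI, 1, 1 and 0 of them members. DESeq2 called 1, 1 and 21 genes, and limma-voom 0, 0 and 14, with 0 members in each. The member with the smallest p was Ubn1 in both comparisons with Ctrl. It had 7.33, 11.5 and 19.8 CPM in VP64 8C, against 9.81, 16.3 and 40.0 CPM in Ctrl 8C, and 5.63, 9.82 and 23.2 CPM in NI 8C. Its log2 difference was -0.91 ± 0.40 between VP64 and Ctrl, 1.03 ± 0.42 between Ctrl and NI and 0.12 ± 0.41 between VP64 and NI (adjusted p = 0.999, 0.999991 and 0.998, edgeR). The median of Ctrl was the highest of the 3, and all groups overlapped. Without replicate 6 of Ctrl 8C the differences were -0.66 and 0.77 for the comparisons with Ctrl.

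The other members at 8C differed between VP64 and Ctrl by -0.61 ± 0.48 (Chaf1a) to 0.51 ± 0.58 (Daxx). Chaf1a had 0.300 CPM, a single count, and Daxx 0.899 CPM in replicate 7 of VP64 8C, where the other 6 VP64 libraries held 18.7 CPM or more and 10.5 CPM or more. Without that library the differences were -0.37 for Chaf1a and 0.73 for Daxx. For Asf1a, VP64 held 96.9, 156 and 233 CPM, against 18.5, 90.8 and 834 CPM in Ctrl 8C, and the difference of -0.46 ± 0.71 became 0.83 without replicate 6 of Ctrl 8C. Nap1l1 had 352, 406 and 623 CPM in VP64 8C, against the 481 CPM or more of every Ctrl 8C library, and the narrowest interval of the members, -0.90 to 0.17 around a difference of -0.36. Without replicate 7, its highest VP64 library, the difference was -0.46. Npm2 had 9.60, 30.3 and 43.2 CPM, Chaf1b 26.1, 51.8 and 62.8 CPM, Hira 10.2, 20.4 and 24.2 CPM, Asf1b 40.4, 47.3 and 68.9 CPM and Rbbp7 508, 862 and 1020.0 CPM in VP64 8C. Each of these 5 overlapped the Ctrl 8C values given above. Npm2 differed from Ctrl by 0.08 ± 0.58, and by 1.04 without replicate 6 of Ctrl 8C. Of the other chaperone genes, Cdan1 had the smallest p between VP64 and Ctrl (-0.77), Vps72 between Ctrl and NI (-0.85) and Supt6 between VP64 and NI (-0.62). Of the histone variants, H1f0 had it between VP64 and Ctrl (-1.02) and between Ctrl and NI (1.28), and H1foo between VP64 and NI (0.70), and none passed.

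At 2C, KRAB was compared with Ctrl, and Ctrl and KRAB each with NI. These again share libraries, and a difference from Ctrl cannot be assigned to the repressor domain, for the reason given for VP64. Of 11799 genes tested in edgeR, 0% passed in KRAB against Ctrl, in Ctrl against NI or in KRAB against NI, with 1838, 2756 and 368 genes at an unadjusted p under 0.05, 3, 4 and 0 of them members. DESeq2 called 221, 1071 and 0 genes, of them 0, 2 and 0 members, and limma-voom 5252, 5993 and 0 genes, of them 4, 6 and 0 members. For KRAB against Ctrl limma-voom called Asf1a (2.22, adjusted p = 0.0149), Rbbp7 (-1.49, adjusted p = 0.0125), Chaf1a (-0.80, adjusted p = 0.0352) and Daxx (-0.76, adjusted p = 0.0392). For Ctrl against NI it called Rbbp7 (2.24), Hira (-1.46), Daxx (1.37), Asf1b (1.53), Ubn1 (-0.92) and Nap1l1 (-0.80), with adjusted p of 0.00279 to 0.0343. Rbbp7 had the smallest p of the members in both comparisons with Ctrl. It had 206, 616 and 949 CPM in KRAB 2C, against 3750, 543, 2310, 421, 2846, 131 and 3545 CPM in Ctrl 2C. The 6 KRAB libraries were all below the Ctrl median but overlapped the 3 lower Ctrl libraries. The log2 difference was -1.46 ± 0.64 for KRAB against Ctrl (adjusted p = 0.288, edgeR), 2.13 ± 0.77 for Ctrl against NI (adjusted p = 0.141, edgeR) and 0.67 ± 0.73 for KRAB against NI. Ctrl against NI passed in edgeR without replicate 6 of Ctrl 2C (2.20, adjusted p = 0.0380), when 1374 of all genes passed, and in DESeq2 (2.01, adjusted p = 0.0356). Replicate 6 had the lowest total of Ctrl 2C, 1043740 counts, and 3306 CPM of the 8-cell markers, against 116 to 395 CPM in the other 6. This marker sum also reached 3608 CPM in KRAB 2C and 2447 CPM in NI 2C, so a high sum was not particular to replicate 6. Which single markers made these sums high was not examined.

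Asf1b had 116, 365, 64.6, 253, 118 and 134 CPM in KRAB 2C, against the Ctrl 2C values of 61.8 to 1385 CPM given above. Its log2 difference was -1.27 ± 0.60 for KRAB against Ctrl and 1.85 ± 0.72 for Ctrl against NI, with adjusted p of 0.320 and 0.153 (edgeR). Daxx differed by -0.44 ± 0.41 for KRAB against Ctrl and 1.004 ± 0.479 for Ctrl against NI, and Chaf1a by -0.84 ± 0.39 and 0.35 ± 0.44. Nap1l1 had 229, 269 and 340 CPM in KRAB 2C, against 132, 223 and 298 CPM in Ctrl 2C and 361, 281, 419 and 430 CPM in NI 2C. Its difference was 0.47 ± 0.33 for KRAB against Ctrl and -0.97 ± 0.37 for Ctrl against NI (adjusted p = 0.150, edgeR), and DESeq2 called the second (-1.06, adjusted p = 0.0202). Npm2 had 54.8, 169 and 228 CPM, Asf1a 25.2, 159 and 398 CPM, Chaf1b 24.5, 26.5 and 36.5 CPM, Hira 8.23, 10.4 and 13.9 CPM and Ubn1 29.3, 40.6 and 77.7 CPM in KRAB 2C. Their differences from Ctrl lay between -0.53 and 0.17, and every group overlapped its Ctrl 2C values. The 0.17 of Asf1a became 1.70 without replicate 1 of Ctrl 2C (adjusted p = 0.387, edgeR). Against NI, the member with the smallest p for KRAB was Npm2 (-1.39 ± 0.79), with NI 2C values on both sides of those of KRAB. Of the other chaperone genes, Mcm2 had the smallest p for KRAB against Ctrl (-1.63) and for Ctrl against NI (2.09), and Supt16 for KRAB against NI (-1.14). Of the variants these were Cenpa (1.10), H1f0 (1.74) and H3f3a (0.96), and none passed.

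**Figure D5:**
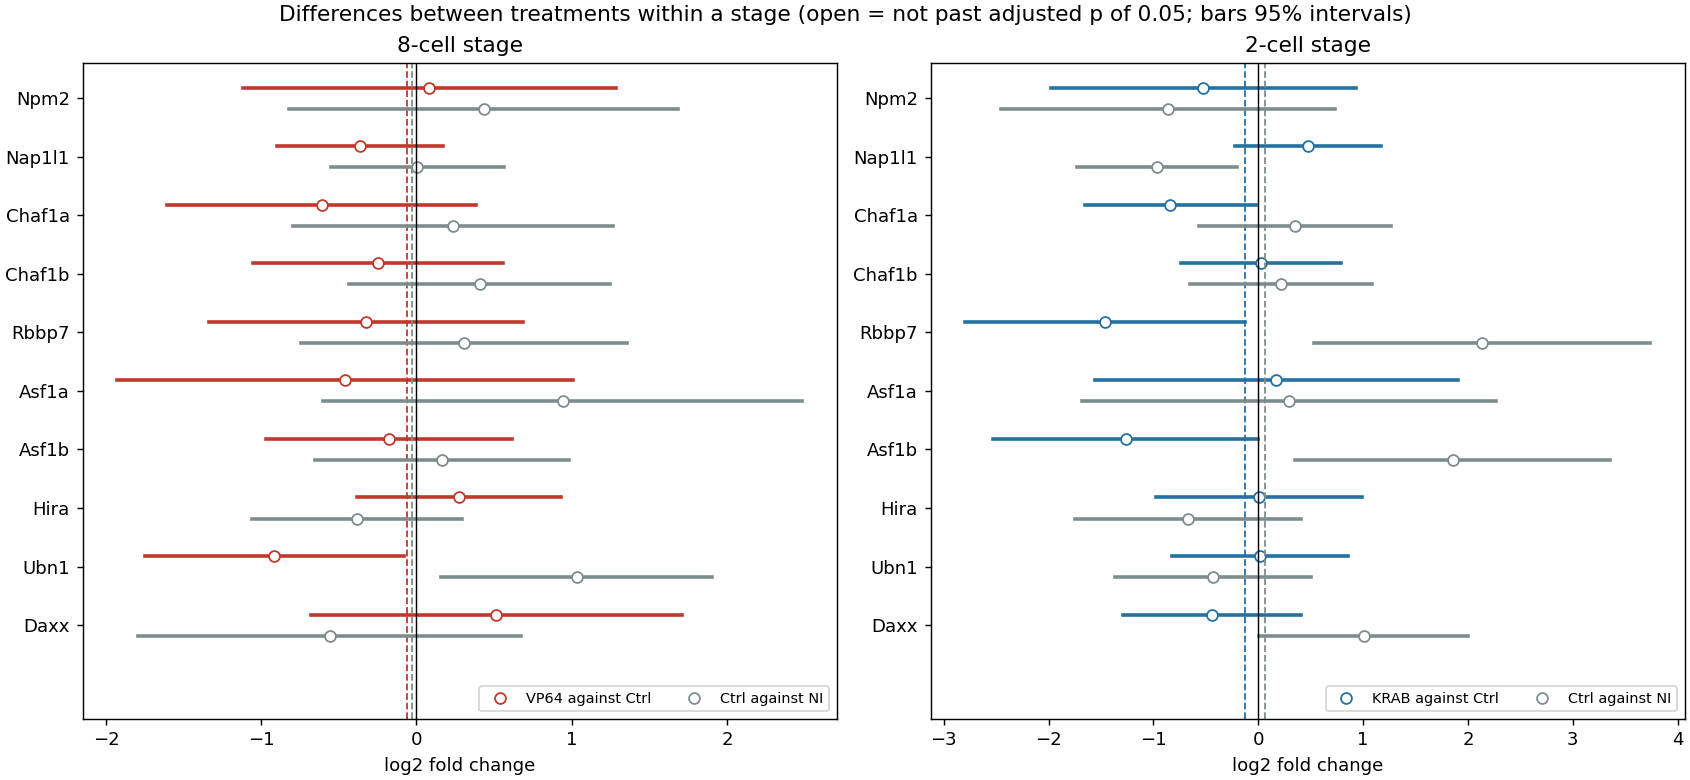
Log2 difference of each histone chaperone gene between treatments at 8C (left: VP64 against Ctrl, Ctrl against NI) and at 2C (right: KRAB against Ctrl, Ctrl against NI), with 95% intervals; open points did not pass an adjusted p of 0.05 and dashed lines mark the median of all genes. All points are open, and the intervals of Nap1l1 are the narrowest of the 10 genes in the 4 comparisons drawn.

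The genes whose levels followed a member most closely over the 36 libraries, by Pearson's r of log2(CPM + 1), were led by Ift43 (r = 0.93, Spearman's rho 0.90), Ooep (0.93 and 0.89) and Mgst3 (0.93 and 0.89) for Npm2. Ooep belongs to the maternal complex under the membrane of the egg. For Asf1b they included Tor1a (0.93 and 0.92) and Bag4 (0.93 and 0.82). For Ubn1 they were Cwc22 (0.90 and 0.87), the proliferation antigen Mki67 (0.87 and 0.84) and its paralogue Ubn2 (0.87 and 0.85). For Nap1l1 they were the cohesin gene Stag2 (0.90 and 0.89), Pelp1 and Serbp1 (both 0.88). Rbbp7 and Daxx each had nucleoporin genes among their 3, Nup88 (0.90 and 0.82) and Nup85 (0.89 and 0.87) for Rbbp7 and Nup62 (0.90 and 0.85) for Daxx. The values describe libraries that share stage and pool, and carry no test.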

How the data were processed

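RNA-seq of 36 pools of mouse embryos was deposited as 1 table of expected counts per gene symbol, which the authors made with RSEM and Bowtie2 (genome mm10), as the submitters' processing notes list them. Versions of these tools and the gene annotation were not given in the sources used here. RSEM divides reads that match several genes, and 9.85% of values were not whole. The deposited expected counts were rounded and tested with edgeR 4.0.16 (limma 3.58.1, R 4.3.3): TMM normalization, filterByExpr (minimum count 10, minimum total 15), robust dispersions, the quasi-likelihood test and Benjamini-Hochberg adjustment over all genes at 0.05. Comparisons within a stage used all libraries of that stage (17 at 2C, 19 at 8C), and comparisons between stages and the interaction all 36. All 10 members passed each filter. Median 95% half-widths of a log2 fold change over all genes were 1.01 to 1.91 across comparisons. Group labels came from treatment and stage, and replicate numbers, given in accession order, pair nothing. Alternatives were the size factors of DESeq2 in edgeR, no filter, DESeq2 1.42.0, limma-voom with quality weights, only the compared groups, and leaving out each library. For the other chaperone and variant genes these were run between the stages, a choice made after seeing the data. The procedure was tested on simulated counts. Coordinates, lengths, overlaps and shared 31-base words came from GENCODE vM21, and promoters from RefSeq. All members were named. Of the other chaperone and variant genes, the 4 largest called rises and falls per list and stage comparison were always named, other called genes could be, and in other comparisons, where none passed, the gene with the smallest p. For likeness the 3 genes with the highest r were taken, model names left out. Some genes that these rules would name are not reported here. Motifs were chosen after the promoters had been read. The members and lists were chosen with earlier results of these data known. Vps75 was not in the table. Columns of samples not used numbered 0.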

Additional observations from a re-analysis of the deposited data

Results flagged for a closer look

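In 4 of the 60 sets formed by a member and a group, the lowest library lay further from its nearest neighbour than Dixon's criterion allows on log2(CPM + 1), and chance alone gives about 1 in 20. Of these, 3 were in replicate 7 of VP64 8C. Chaf1a was at 0.300 CPM there, with the next library at 18.7 CPM, Daxx at 0.899 CPM, with the next at 10.5 CPM, and Hira at 10.2 CPM, with the next at 16.9 CPM. That library had 11343 genes detected and a scaling factor of 0.624, while Rbbp7 (961 CPM), Nap1l1 (623 CPM) and Asf1b (68.9 CPM) were not low in it. The other was Rbbp7 at 230.9 CPM in replicate 6 of Ctrl 8C, with the next library at 860 CPM, and that library also held the highest Asf1a (834 CPM) and Npm2 (84.0 CPM) of its group.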

How the results depend on the processing

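Of 1630 repeats of a member's value under an alternative, 1493 kept their direction and their side of the threshold, 30 passed newly, 3 no longer passed and 104 changed sign, none of these 104 a call in either fit. The number of members called between stages in NI was 2, and 5 in limma-voom with quality weights, and 2 to 4 with a library left out. Of all 13158 genes, edgeR called 6562 there and limma-voom 7444. In Ctrl the members called were 5, from 4 to 7 over the alternatives, and 5 to 6 with a library left out. All genes called in Ctrl numbered 8092 in edgeR, 5877 with only the compared groups (4 members) and 9605 in limma-voom (7 members). For Ctrl against NI at 2C the members called were 0, but 2 in DESeq2 and 6 in limma-voom, and 0 to 1 with a library left out. Over all genes DESeq2 called 1071 there, and limma-voom 5993 of 11799. For KRAB against Ctrl limma-voom called 4 members among 5252 genes, and for the interaction 3 among 3600. With the size factors of DESeq2 in edgeR the sign turned for Asf1b (0.022) and Rbbp7 (0.014) in VP64 against NI, Daxx (-0.16) in 8C against 2C in NI and Chaf1b (0.016) in the interaction. Without the filter on low counts the sign turned for Chaf1b (-0.0071), Hira (-0.042) and Ubn1 (-0.024) in KRAB against Ctrl, Nap1l1 (-0.014) in Ctrl against NI at 8C and Asf1a (0.0042) in 8C against 2C in NI. In DESeq2 the sign turned for Asf1b (0.018) and Rbbp7 (0.012) in VP64 against NI, Daxx (-0.16) in 8C against 2C in NI and Chaf1b (0.0049) in the interaction. In limma-voom the sign turned for Asf1a (-1.91) and Npm2 (1.19) in Ctrl against NI at 2C, Npm2 (0.36) in KRAB against NI, Asf1a (1.29), Asf1b (0.082) and Chaf1b (0.0011) in VP64 against Ctrl, Asf1a (-0.44), Asf1b (-0.071) and Nap1l1 (-0.050) in Ctrl against NI at 8C, Asf1b (0.011) in VP64 against NI and Npm2 (-1.44) in the interaction. With only the compared groups the sign turned for Asf1a (0.058) in 8C against 2C in NI. With a library left out, values ran through 0 as follows. For KRAB against Ctrl the range was -0.26 to 1.70 for Asf1a, -0.072 to 0.16 for Chaf1b, -0.13 to 0.33 for Hira and -0.24 to 0.28 for Ubn1. For Ctrl against NI at 2C the range was -1.29 to 0.51 for Asf1a and -0.069 to 0.79 for Chaf1b. For KRAB against NI the range was -0.019 to 0.85 for Chaf1b. For VP64 against Ctrl the range was -0.71 to 0.83 for Asf1a, -0.37 to 0.21 for Asf1b, -0.40 to 0.074 for Chaf1b and -0.12 to 1.04 for Npm2. For VP64 against NI the range was -0.11 to 0.25 for Asf1b, -0.0061 to 0.37 for Chaf1b, -0.22 to 0.28 for Daxx, -0.21 to 0.0086 for Hira, -0.19 to 0.38 for Rbbp7 and -0.042 to 0.48 for Ubn1. For Ctrl against NI at 8C the range was -0.33 to 1.59 for Asf1a, -0.22 to 0.43 for Asf1b, -0.045 to 0.061 for Nap1l1 and -0.55 to 0.95 for Npm2. For the interaction the range was -0.76 to 2.05 for Asf1a, -0.58 to 0.11 for Chaf1b, -0.22 to 0.34 for Hira and -0.065 to 1.37 for Npm2. For 8C against 2C in NI the range was -0.55 to 0.21 for Asf1a and -0.14 to 0.49 for Daxx. For 8C against 2C in Ctrl the range was -0.85 to 1.85 for Asf1a. Asf1a turned without replicate 6 of Ctrl 8C in every comparison that holds Ctrl 8C, and its 1.70 for KRAB against Ctrl came without replicate 1 of Ctrl 2C. The causes were not tested. When the fit held the NI libraries alone, the median of all genes was 0.09 in place of -0.47, and 2494 of 5091 called genes were higher at 8C, beside 2433 of 6562. Without replicate 6 of Ctrl 2C, edgeR called 159 genes between KRAB and Ctrl, 1374 between Ctrl and NI and 1098 in the interaction, beside 0. With only the groups compared, Ubn1 in Ctrl had -1.19 (adjusted p = 0.0529, edgeR). Among the other genes, calls between stages were lost without the filter for Cabin1 in NI and Hjurp in Ctrl (adjusted p = 0.0544 and 0.0655, edgeR), and with only the groups compared for Cabin1 in NI and for Ipo4, Npm3 and H3f3b in Ctrl (adjusted p = 0.0639, 0.0665, 0.0793 and 0.152, edgeR). No paired analysis was possible because the replicate numbers were given in accession order and pair no pools. With median half-widths above 1 on the log2 scale, differences under about 2-fold were mostly not detectable within a stage. These half-widths take no account of the adjustment over all genes, so larger differences could go uncalled as well. That of Rbbp7 between Ctrl and NI at 2C did so (adjusted p = 0.141, edgeR). A lack of calls within a stage therefore does not show that levels were equal.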
